A study of Mus musculus with 10 samples.

Results

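The genes that encode the mitochondrial respiratory chain and ATP synthase were followed across 3 populations of mouse liver cells: hepatocyte-derived peripheral cholangiocytes (HpC, 4 libraries), peripheral cholangiocytes (pC, 3 libraries) and hepatocytes (H, 3 libraries). Genes were selected by symbol: nuclear protein-coding genes beginning Nduf, Uqcr, Cox4 to Cox8 or Atp5, the genes Sdha to Sdhd, Cycs and Cyc1, and the protein-coding genes of the mitochondrial genome. This gave 109 of the 29972 genes with a value, 96 nuclear and 13 mitochondrial. By the prefix of their symbols, 38 of the nuclear genes belong to complex I, 4 to complex II, 9 to complex III, 18 to complex IV and 18 to ATP synthase, 1 encodes cytochrome c, and 8 (Ndufaf1 to Ndufaf8) encode complex I assembly factors rather than subunits. Ndufa4 is counted with complex I by its symbol, although its protein is known as a subunit of complex IV.

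The respiratory chain passes electrons from nutrients to oxygen through complexes I to IV and pumps protons across the inner mitochondrial membrane, and ATP synthase uses that gradient to make ATP. Complexes I, III, IV and ATP synthase combine subunits from both genomes, while complex II and cytochrome c are entirely nuclear. Hepatocytes are rich in mitochondria, which in these cells also serve gluconeogenesis, the urea cycle and fatty acid oxidation, whereas cholangiocytes line the bile ducts and modify bile.

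HpC and H came from mice of genotype Alb-Cre+/-;Rbpjf/f;Hnf6f/f, in which the albumin promoter drives Cre in hepatocytes and in biliary cells formed from their precursors, and pC came from Rbpjf/f;Hnf6f/f mice without Cre. Rbpj is the DNA-binding effector of Notch signalling and Hnf6 (Onecut1) a transcription factor of bile duct formation. Ages were P124, P151, P144 and P139 for HpC, P151, P119 and P142 for pC, and P134, P139 and P139 for H (P, postnatal day), and the strain was a mix of C57BL/6, FVB and CD1. All cells were purified by FACS; HpC and pC came from nonparenchymal cells after collagenase, accutase and trypsin, and H after collagenase perfusion alone. The labels do not say whether H2 and H3, which share an age, came from separate mice, so p-values may in part measure technical spread. HpC4 has the same age and genotype as H2 and H3, and whether it shares a mouse with either is not stated.

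The deposited values are TPM per transcript, an abundance per unit of transcript length that sums to a fixed total, so the number of reads is unknown and no counting error can be given. Rbpj was at 2.83 to 10.1 TPM in HpC, 8.42 to 10.8 in pC and 0.602 to 0.929 in H, and Onecut1 at 22.2 to 74.7, 98.5 to 125 and 23.2 to 63.9 TPM; the sources used here do not state which exons are deleted, so these values do not check the deletion. The 12 cholangiocyte markers took 0.250 to 0.912% of all TPM in HpC, 1.31 to 1.37% in pC and 0.0124 to 0.0134% in H, and the 11 hepatocyte markers 0.357 to 0.835%, 0.186 to 0.416% and 4.73 to 4.87%. HpC1 held 22.5% of its TPM in 15 pancreatic acinar genes and HpC2 held 4.65% in 13 squamous epithelial genes, so the set medians of HpC are also given without this pair.

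Respiratory chain RNA of both genomes was higher in hepatocytes than in either cholangiocyte population, by a margin that depended on the scale. Leaving out mt-Atp8 and Atp5j, whose values rest on very short transcripts (below), the mitochondrial genes summed to 11120, 23270, 25370 and 26970 deposited TPM in HpC1 to HpC4, 24530, 22620 and 20910 in pC1 to pC3, and 47440, 43360 and 49240 in H1 to H3. The nuclear genes summed to 4169, 8514, 6899 and 6049 TPM in HpC1 to HpC4, 8262, 7372 and 6328 in pC1 to pC3, and 11500, 10440 and 10140 in H1 to H3. Every H library was above every HpC and pC library in both sums, whereas the HpC and pC ranges overlapped.

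After scaling the libraries to one another on all genes (scaled TPM), the gap was wider. The nuclear sum was 20240 ± 636 in H (SD, n = 3), 5537 ± 1604 in HpC (SD, n = 4) and 4704 ± 710.1 in pC (SD, n = 3), and the mitochondrial sum 88600 ± 8448, 17770 ± 1670 and 14570 ± 1442. The choice of scale matters here: with TPM as deposited, the median difference of all 14765 genes tested was 1.20 on the log2 scale in pC against H and 0.87 in HpC against H, and with scaling it was 0.11 and 0.08. Relative to the median of all genes as deposited, the nuclear genes lay at -1.69 in pC against H and -1.55 in HpC against H, and the mitochondrial genes at -2.25 and -2.01. These are bulk samples, in which fewer cells of a type and less RNA per cell cannot be told apart.

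**Figure D1:**
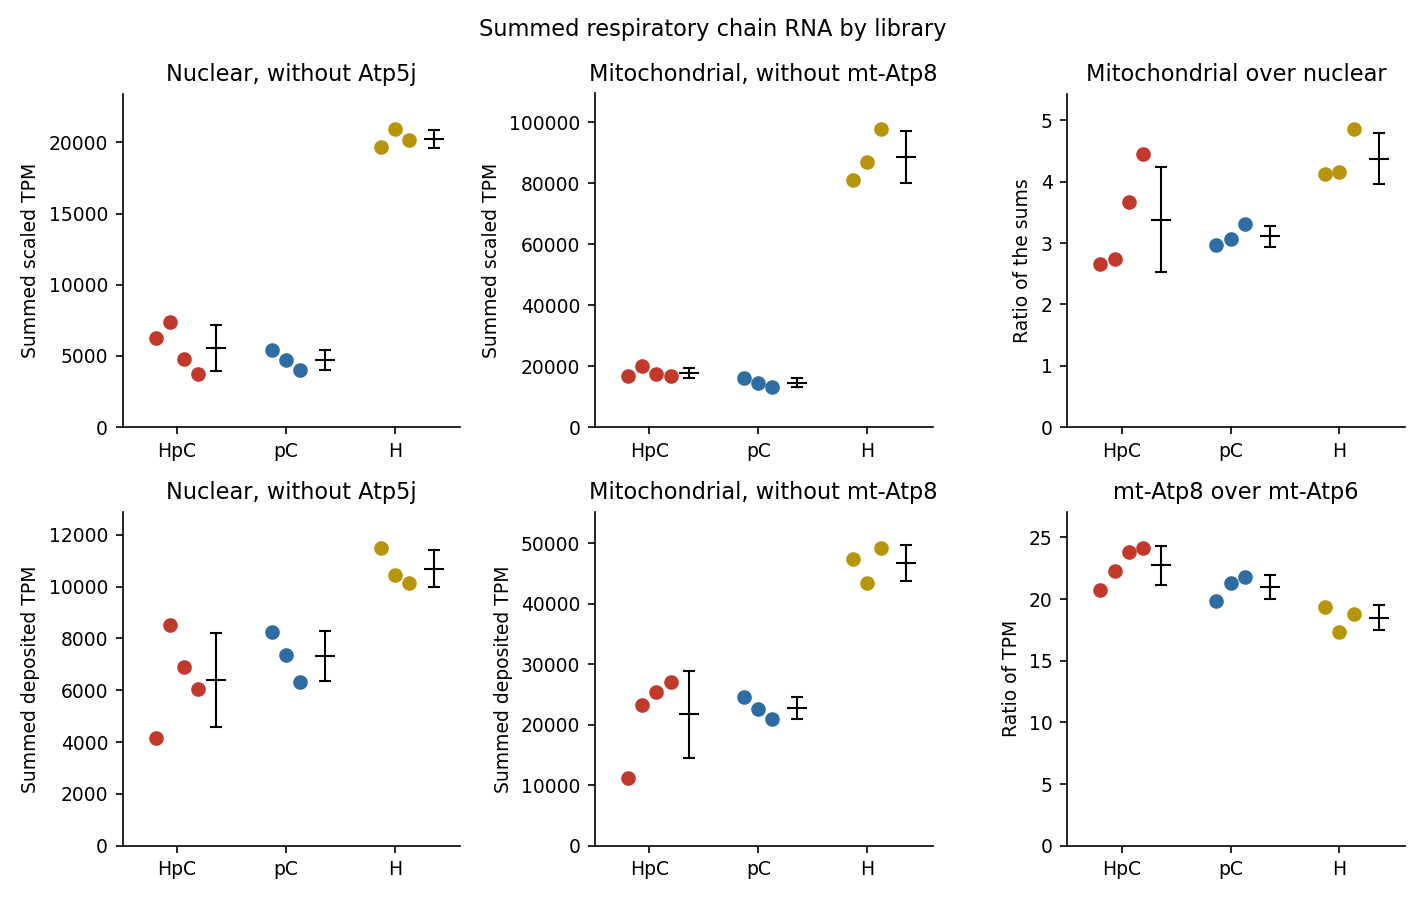
Summed level of the respiratory chain genes in each library (points; bars, mean ± SD of 4 HpC, 3 pC and 3 H libraries), with mt-Atp8 and Atp5j left out of the sums. All H libraries are highest in the nuclear and mitochondrial sums in scaled and in deposited TPM; the ratio of the mitochondrial to the nuclear sum is 4.13 to 4.86 in H, and that of mt-Atp8 to mt-Atp6 is 17.4 to 24.2 over all libraries.

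The balance between the genomes can be read within a library, with no scaling. The ratio of mitochondrial to nuclear summed TPM, again without mt-Atp8 and Atp5j, was 2.67, 2.73, 3.68 and 4.46 in HpC1 to HpC4, 2.97, 3.07 and 3.30 in pC1 to pC3, and 4.13, 4.15 and 4.86 in H1 to H3. H was above pC in every library. HpC1 and HpC2, which hold the acinar and squamous RNA, gave ratios below all pC libraries, while HpC3 and HpC4 lay above all of them and HpC4 within the range of H. The part of the acinar and squamous RNA in these ratios was not tested.

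In the mitochondrial genome, all 13 genes were lower in HpC than in H and all 13 were lower in pC than in H (limma, Benjamini-Hochberg adjusted p under 5%), where 29.2% and 28.6% of all genes tested were lower. Both comparisons share the H libraries, and genes of the same genome are not independent observations. The median difference was -2.28 (range -2.58 to -1.86) in HpC against H and -2.61 (range -3.02 to -2.15) in pC against H, on the log2(scaled TPM + 1) scale used for all differences below. The 13 genes were also higher in every H library than in every HpC and every pC library, both in scaled TPM, where 28.9% and 33.2% of all genes tested were, and in TPM as deposited, where 11.1% and 10.7% were.

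Among the complex I subunits of this genome, mt-Nd2 stood at 696, 734, 806 and 698 scaled TPM in HpC, 562, 543 and 513 in pC, and 4228, 4225 and 4666 in H. The 3 groups did not overlap, and mt-Nd2 had the greatest difference of the 13 in pC against H, with -2.58 ± 0.14 in HpC against H and -3.02 ± 0.15 in pC against H (SE; limma adjusted p = 2.84e-07 and 1.81e-07). mt-Nd1 stood at 1201, 1369, 1439 and 1296 scaled TPM in HpC, 1086, 970.1 and 985 in pC, and 5019, 4459 and 4954 in H. Its difference of -1.86 ± 0.15 in HpC against H (limma adjusted p = 3.4e-06) was the least of the 13. mt-Nd3, mt-Nd4, mt-Nd4l, mt-Nd5 and mt-Nd6 differed by -2.06 to -2.43 in HpC against H and by -2.40 to -2.78 in pC against H. The mt-Nd4l transcript is identical over 294 bases to the pseudogene Gm10222, and reads of the pair cannot be told apart.

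mt-Cytb, the cytochrome b of complex III, had 1335, 1572, 1375 and 1331 scaled TPM in HpC, 1246, 1108 and 963 in pC, and 6776, 7438 and 8703 in H. It differed by -2.44 and -2.79 in HpC and pC against H. Of the complex IV core, mt-Co1, which holds the oxygen-reducing site, had 2808, 3419, 2857 and 2716 scaled TPM in HpC, 2958, 2656 and 2328 in pC, and 12830, 14640 and 16020 in H. mt-Co1, mt-Co2 and mt-Co3 differed by -2.30, -1.94 and -2.14 in HpC against H and by -2.45, -2.15 and -2.42 in pC against H. mt-Atp6, the proton channel subunit of ATP synthase, had 3370, 4336, 3127 and 3008 scaled TPM in HpC, 3287, 2812 and 2437 in pC, and 18030, 21110 and 22350 in H. It differed by -2.58 and -2.85, so that for each of these genes H stood apart from both cholangiocyte groups.

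The share of each gene in the mitochondrial set needs no scaling. Without mt-Atp8, mt-Atp6 took 17.8% to 21.5% of the mitochondrial TPM in HpC, 18.5% to 20.5% in pC and 22.2% to 24.3% in H, highest in H. The 3 complex IV genes together took 28.2% to 29.2% in H, 31.2% to 32.1% in HpC and 33.5% to 33.8% in pC, ranges that do not overlap. mt-Nd3, the smallest share in every library, took 2.45% to 2.90% in HpC, 2.13% to 2.34% in pC and 2.21% to 2.33% in H.

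mt-Atp8 needs its own account, since it alone took 4.67% of all TPM in HpC1, 10.8 to 11.7% in the other HpC, 8.41 to 9.97% in pC and 18.3 to 21.1% in H. It encodes a small subunit of ATP synthase and is read from the same RNA as mt-Atp6, with which it shares its last 43 bases. Its sequence is shown because that shared end, in capitals, cannot assign a read to either gene (mm10, chrM:7766-7969, plus strand; shared bases chrM:7927-7969):
mt-Atp8: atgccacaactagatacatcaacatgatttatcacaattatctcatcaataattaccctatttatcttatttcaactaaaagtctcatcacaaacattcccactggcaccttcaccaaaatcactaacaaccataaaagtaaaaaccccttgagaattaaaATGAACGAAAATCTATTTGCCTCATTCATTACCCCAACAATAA
The annotated mt-Atp8 transcript has 204 bases and the most abundant Atp5j transcript 203. mt-Atp8 was 20.7 to 24.2 times mt-Atp6 in HpC, 19.9 to 21.8 times in pC and 17.4 to 19.4 times in H. TPM divides by length, and for transcripts this short the divisor depends on an assumed fragment length, which the sources used here do not state; its part in both levels was not tested.

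**Figure D2:**
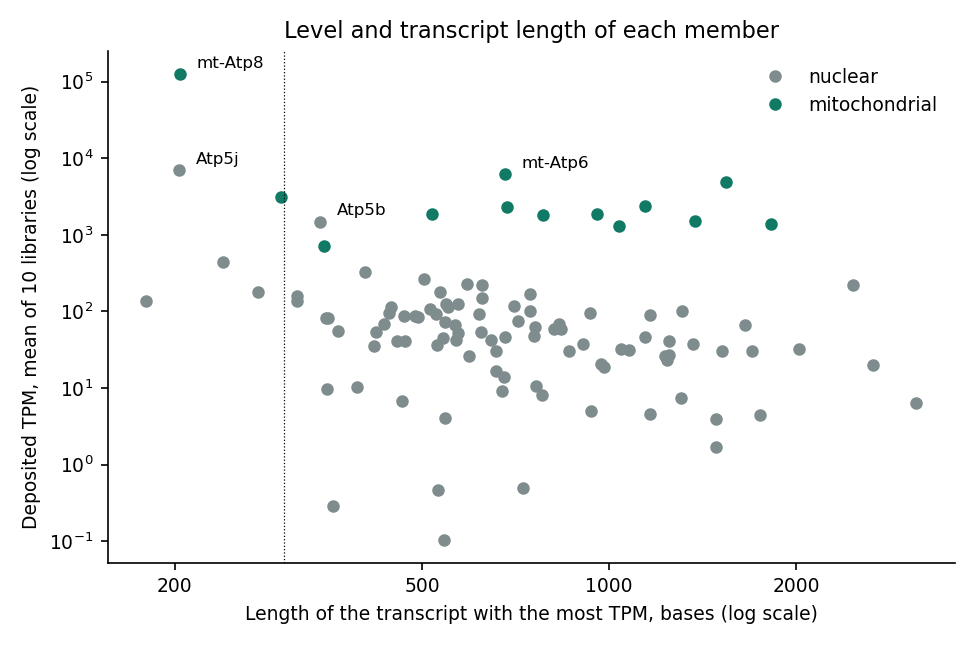
Mean deposited TPM of each gene over the 10 libraries against the length of the transcript that holds most of its TPM, both on log scales; genes at 0 in all libraries are left out. The dotted line is at 300 bases; mt-Atp8 (204 bases) and Atp5j (203 bases) lie to its left, above the other genes of their genome.

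Of the 96 nuclear genes, 88 reached 1 TPM in at least 3 libraries and were tested. In HpC against H, 85 were lower, 2 were higher and 1 was not called, and in pC against H, 83 were lower, 2 were higher and 3 were not called. Over all genes tested, 59.9% were called in HpC against H (29.2% lower, 30.7% higher) and 59.6% in pC against H (28.6% lower, 31.1% higher). The median nuclear difference was -1.79 (quartiles -1.98 and -1.56) in HpC against H and -2.02 (quartiles -2.25 and -1.75) in pC against H; over all genes the quartiles were -0.74 and 0.87, and -0.77 and 0.89. Without HpC1 and HpC2, the nuclear and mitochondrial medians of HpC against H were -1.99 and -2.23.

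The scale set how many nuclear genes were called. With TPM as deposited, 40 were called lower in HpC against H and 20 in pC against H, beside 1519 and 1255 of all 14765 genes tested. Without any test, 55 and 57 were higher in every H library than in every HpC and every pC library (11.1% and 10.7% of all genes tested). In the other direction, 3 were higher in every HpC than in every H library (Cox6b2, Cox7a1 and Ndufaf7; 47.3% of all genes) and 9 in every pC than in every H library (72.7% of all genes).

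Complex I is the entry point for electrons from NADH. All 37 of its tested genes were lower in both cholangiocyte populations, with medians of -1.82 in HpC against H and -1.99 in pC against H. Ndufb9, an accessory subunit, had 105, 95.0, 57.1 and 37.7 scaled TPM in HpC, 70.2, 52.7 and 45.4 in pC, and 368, 396 and 385 in H. HpC and pC overlapped and both lay far under H, with differences of -2.47 ± 0.32 in HpC against H and -2.77 ± 0.34 in pC against H (SE; limma adjusted p = 8.41e-05 and 6.31e-05). Ndufv3, an accessory subunit next to the NADH-oxidising site, differed by -2.47 and -2.58. The core subunits Ndufs1, Ndufv1 and Ndufv2 differed by -1.57 to -1.94 in HpC against H and by -1.92 to -2.18 in pC against H.

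The most abundant complex I gene, Ndufa6, had 182, 137, 109.6 and 123.8 scaled TPM in HpC, 173, 224 and 153 in pC, and 429.6, 489 and 530.5 in H. It differed by -1.82 ± 0.20 in HpC against H and -1.41 ± 0.22 in pC against H (SE; limma adjusted p = 2.9e-05 and 0.000299), and pointed the other way in pC against H, at 0.15, with TPM as deposited. Ndufa12 had the least difference of complex I in HpC against H, -0.64 ± 0.22 (limma adjusted p = 0.0294), with 79.2, 82.2, 64.2 and 43.3 scaled TPM in HpC, 42.0, 43.3 and 43.2 in pC, and 84.4, 109 and 116 in H. As deposited it had 52.9, 94.7, 93.0 and 69.8 TPM in HpC, 64.1, 67.7 and 68.6 in pC, and 49.3, 54.3 and 58.5 in H, with every pC library above every H library, and differed by 0.48 and 0.30. Part of Ndufb4 is identical to a shorter copy, Ndufb4c, at 95.6 to 251 TPM; with matched copies added it differed by -1.997 ± 0.27 and -2.07 ± 0.29, beside -1.78 and -1.84 alone.

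Complex II, succinate dehydrogenase, serves both the respiratory chain and the tricarboxylic acid cycle. All 4 genes were lower in both comparisons. Sdha, the flavoprotein, had 271, 236, 257 and 196 scaled TPM in HpC, 307, 273 and 237 in pC, and 1199, 1263 and 1247 in H. H stood apart, with differences of -2.37 ± 0.16 in HpC against H and -2.19 ± 0.17 in pC against H (SE; limma adjusted p = 8.73e-07 and 2.36e-06), and 38.8% of Sdha TPM lay in transcripts under 300 bases. Sdhb, the iron-sulphur subunit, had 35.4, 33.3, 24.5 and 16.5 scaled TPM in HpC, 25.6, 20.8 and 20.7 in pC, and 132, 158 and 152 in H. H exceeded HpC 5.41-fold and pC 6.34-fold. Sdhc and Sdhd, the membrane anchors, differed by -2.11 and -2.36 in HpC against H and by -2.27 and -2.56 in pC against H.

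Complex III passes electrons from quinol to cytochrome c. All 9 nuclear genes were lower in both comparisons, with medians of -2.05 and -2.34, and Uqcrq had the greatest difference of the 101 genes tested. Uqcrq, a small subunit bound to cytochrome b (mm10 chr11:53427922-53430831, minus strand), had 268, 204, 114 and 64.3 scaled TPM in HpC, 99.7, 94.8 and 75.8 in pC, and 1402, 1404 and 1325 in H. H exceeded HpC 9.65-fold and pC 15.2-fold, with log2 differences of -3.27 ± 0.41 in HpC against H and -3.93 ± 0.43 in pC against H (SE; limma adjusted p = 5.88e-05 and 2.64e-05). As deposited, Uqcrq had 104 to 236 TPM in HpC, 120.3 to 152 in pC and 667 to 819 in H, again with H apart. Within HpC its scaled level was highest in HpC1 and HpC2.

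Uqcr11, a further small subunit, differed by -2.38 and -2.78 in HpC and pC against H, and Cyc1, cytochrome c1, by -2.05 and -2.44. The core proteins Uqcrc1 and Uqcrc2 differed by -1.73 and -1.58 in HpC against H and by -2.12 and -2.01 in pC against H. Uqcrfs1, the Rieske iron-sulphur protein, differed by -2.20 and -2.38.

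Complex IV, cytochrome c oxidase, reduces oxygen to water. Of its 13 tested nuclear genes, 11 were lower and 2 were higher in each comparison, with medians of -1.60 and -1.94. Cox6c, the most abundant, had 199, 264, 152 and 111 scaled TPM in HpC, 179, 132 and 132 in pC, and 711, 749.6 and 734 in H. It differed by -2.08 and -2.31. Cox5a (mm10 chr9:57521274-57532426, plus strand) had 36.8, 49.0, 31.6 and 21.9 scaled TPM in HpC, 17.6, 14.4 and 19.6 in pC, and 112, 111 and 114 in H. H was the highest and pC the lowest of the 3 groups with no overlap, and the differences were -1.72 ± 0.24 in HpC against H and -2.65 ± 0.25 in pC against H (SE; limma adjusted p = 0.000122 and 9.31e-06).

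ATP synthase had 16 tested nuclear genes, of which 16 were lower in HpC against H and 15 in pC against H, with medians of -1.82 and -2.07. Atp5b, the catalytic beta subunit, had 1087, 1560, 943 and 729.6 scaled TPM in HpC, 1075, 929.6 and 789 in pC, and 3422, 3441 and 3555 in H. It differed by -1.74 ± 0.25 in HpC against H and -1.91 ± 0.26 in pC against H (SE; limma adjusted p = 0.000158 and 0.000137). In Atp5b, 76.8% of the TPM lay in a transcript of 343 bases, where its longest has 1916. Atp5j, coupling factor 6, held 98.3% of its TPM in its 203-base transcript and had 3262 to 5475 scaled TPM in HpC, 3320 to 4939 in pC and 17300 to 19340 in H, differing by -1.99 and -2.10. Atp5k, subunit e, differed by -2.42 and -2.78, with 65.7% of its TPM in transcripts under 300 bases. The gene not called in pC against H was Atp5s, a coupling factor, which had 0.706, 1.16, 0.447 and 1.92 scaled TPM in HpC, 1.77, 1.65 and 1.17 in pC, and 3.05, 2.23 and 2.39 in H. Its difference was -0.49 ± 0.26 (SE; limma adjusted p = 0.125). As deposited, every pC library was above every H library, at 1.86 to 2.71 against 1.11 to 1.78 TPM.

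Cytochrome c and the assembly factors showed smaller differences. Cycs, the mobile electron carrier, had 4.66, 7.23, 5.40 and 4.18 scaled TPM in HpC, 3.84, 5.61 and 5.77 in pC, and 9.67, 10.3 and 7.76 in H. The H range lay above the others, and the differences were -0.70 ± 0.20 in HpC against H and -0.76 ± 0.22 in pC against H (SE; limma adjusted p = 0.0128 and 0.0118). Pseudogenes matched by sequence held most of the TPM of the Cycs family: Gm10108, 99.4% identical over 319 bases, alone had 21.4 to 94.4 TPM. With these copies added, the differences were -1.32 ± 0.30 and -1.73 ± 0.32. As deposited, Cycs alone pointed the other way, at 0.29 and 0.59.

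Of the 8 assembly factors, 7 were lower in HpC against H and 6 in pC against H, with medians of -1.27 and -1.25. Ndufaf2, the most abundant, had 10.8, 13.1, 9.42 and 9.07 scaled TPM in HpC, 14.2, 9.24 and 10.8 in pC, and 19.4, 25.5 and 21.9 in H. It differed by -1.01 and -0.92, and by 0.06 and 0.55 with TPM as deposited. Ndufaf1, Ndufaf4, Ndufaf6 and Ndufaf8 differed by -1.46 to -1.95 in HpC against H. Ndufaf5 had 2.21 to 5.30 scaled TPM in HpC, 2.70 to 4.58 in pC and 4.12 to 7.24 in H, so that the groups overlapped, and was called in neither comparison (limma adjusted p = 0.0976 and 0.234). As deposited it had 1.48 to 6.32 TPM in HpC, 4.22 to 7.26 in pC and 2.07 to 3.61 in H, with every pC library above every H library. Ndufaf7 was called in HpC against H, at -0.38 (limma adjusted p = 0.0473), and not in pC against H, at -0.17. With TPM as deposited it pointed the other way, at 0.51 (limma adjusted p = 0.124) and 1.08 (limma adjusted p = 0.00594).

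**Figure D3:**
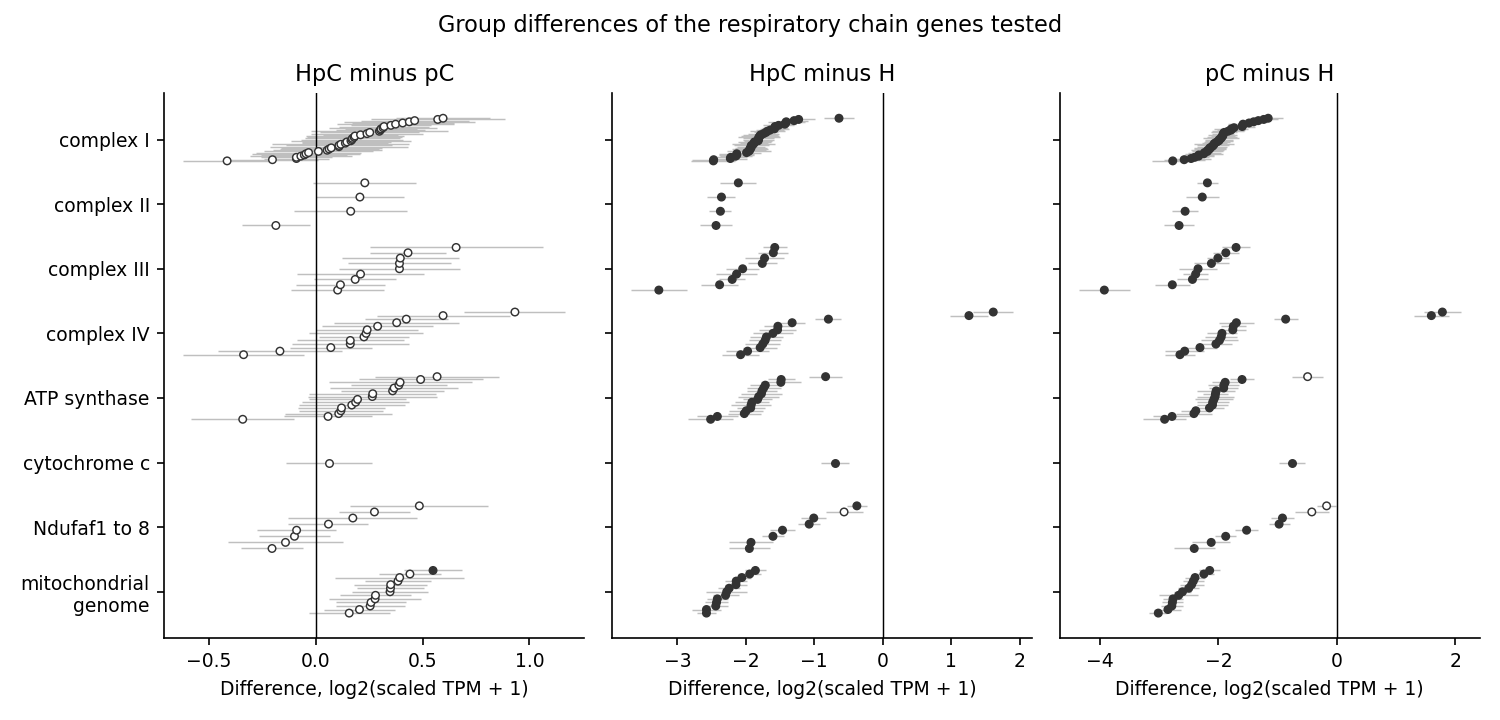
Difference between groups for each of the 101 genes tested (points with SE from limma), by complex and for the mitochondrial genome; filled points passed the 5% threshold. In both comparisons with H nearly all points lie left of 0, with Uqcrq farthest left and Cox6b2 and Cox7a1 of complex IV to the right; in HpC against pC, mt-Nd3 is the filled point.

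The nuclear genes that were higher in cholangiocytes were 2 alternative subunits of complex IV. Cox6b2, known as the testis form of subunit 6b (mm10 chr7:4751792-4753094, minus strand), had 5.68, 4.43, 6.90 and 7.46 scaled TPM in HpC, 10.98, 3.96 and 7.24 in pC, and 0.921, 1.30 and 1.71 in H. Every HpC and pC library was above every H library, with differences of 1.62 ± 0.29 in HpC against H and 1.78 ± 0.31 in pC against H (SE; limma adjusted p = 0.000751 and 0.000629). Cox7a1, known as the heart and muscle form of subunit 7a (mm10 chr7:30184144-30186078, plus strand), had 5.50, 6.85, 10.2 and 12.03 scaled TPM in HpC, 13.6, 7.79 and 11.6 in pC, and 2.97, 3.78 and 2.07 in H. It was likewise above H in every library, with differences of 1.26 ± 0.28 in HpC against H and 1.60 ± 0.30 in pC against H (SE; limma adjusted p = 0.003 and 0.00108). The 8 muscle and fat marker genes summed to 0.158 to 1.84 TPM in HpC, 0.181 to 0.267 in pC and 0.0161 to 0.122 in H. These sums are low, but every cholangiocyte library was above every H library. Markers of several other cell types summed to more in every cholangiocyte library than in any H library. Those of macrophages summed to 58.6 to 323 TPM in HpC, 131 to 255 in pC and 1.03 to 2.67 in H, and those of stellate cells and fibroblasts to 32.3 to 75.2, 32.5 to 46.2 and 1.119 to 1.67. Endothelial markers summed to 8.37 to 26.1, 13.3 to 23.3 and 1.62 to 1.81. Erythroid markers summed to 35.6 to 218, 57.0 to 120 and 5.40 to 10.6, and mesothelial markers (below) were likewise higher. The part of these cells in the values of Cox6b2 and Cox7a1 was not tested.

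A paralogue's share of its own set needs no scaling. Cox6b2 was 0.498%, 0.540% and 0.757% of Cox6b TPM in H, 14.1%, 7.26% and 13.8% in pC, and 6.75%, 3.81%, 9.68% and 15.1% in HpC. Cox7a1 was 2.70%, 3.33% and 1.75% of Cox7a TPM in H, 21.2%, 13.7% and 25.2% in pC, and 8.77%, 9.77%, 20.1% and 25.4% in HpC. Both shares separated H from all cholangiocyte libraries, and both were lowest among HpC in HpC1 and HpC2. The ubiquitous partners Cox6b1 and Cox7a2 differed by -1.60 and -1.54 in HpC against H and by -1.98 and -1.70 in pC against H.

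The ring subunit c of ATP synthase is encoded by the Atp5g genes. Atp5g1 had 22.0, 22.5, 12.3 and 7.47 scaled TPM in HpC, 14.2, 10.2 and 9.02 in pC, and 96.0, 86.3 and 84.1 in H. H exceeded HpC 5.71-fold and pC 7.51-fold. Atp5g1 was 33.9%, 31.4% and 31.3% of Atp5g TPM in H, 22.2%, 19.6% and 17.7% in pC, and 30.6%, 25.3%, 19.9% and 18.3% in HpC, so that HpC1 came close to H. Atp5g3 took the rest and differed by -1.93 and -2.05. Matched pseudogenes, 5 in all, held 28.7% of the TPM of Atp5g1 and its copies. The Atp5g1 share was not computed with them added.

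Of the other isoform sets, the usual forms were lower in both comparisons. Cox4i1 differed by -1.53 and -1.76, Cox6a1 by -1.70 and -1.94, Cox8a by -1.79 and -1.95 and Ndufa4 by -1.74 and -1.92. Cox7b differed by -1.97 and -2.57, with 46.1% of its TPM in transcripts under 300 bases. Cox7a2l, which helps to join complexes III and IV, had 21.6 to 33.2 scaled TPM in HpC, 19.6 to 29.4 in pC and 41.4 to 49.6 in H. It differed by -0.79 and -0.86 and pointed the other way, at 0.31 and 0.65, with TPM as deposited. Its pseudogene Gm6969, 98.0% identical over 342 bases, had 25.5 to 63.2 TPM.

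**Figure D4:**
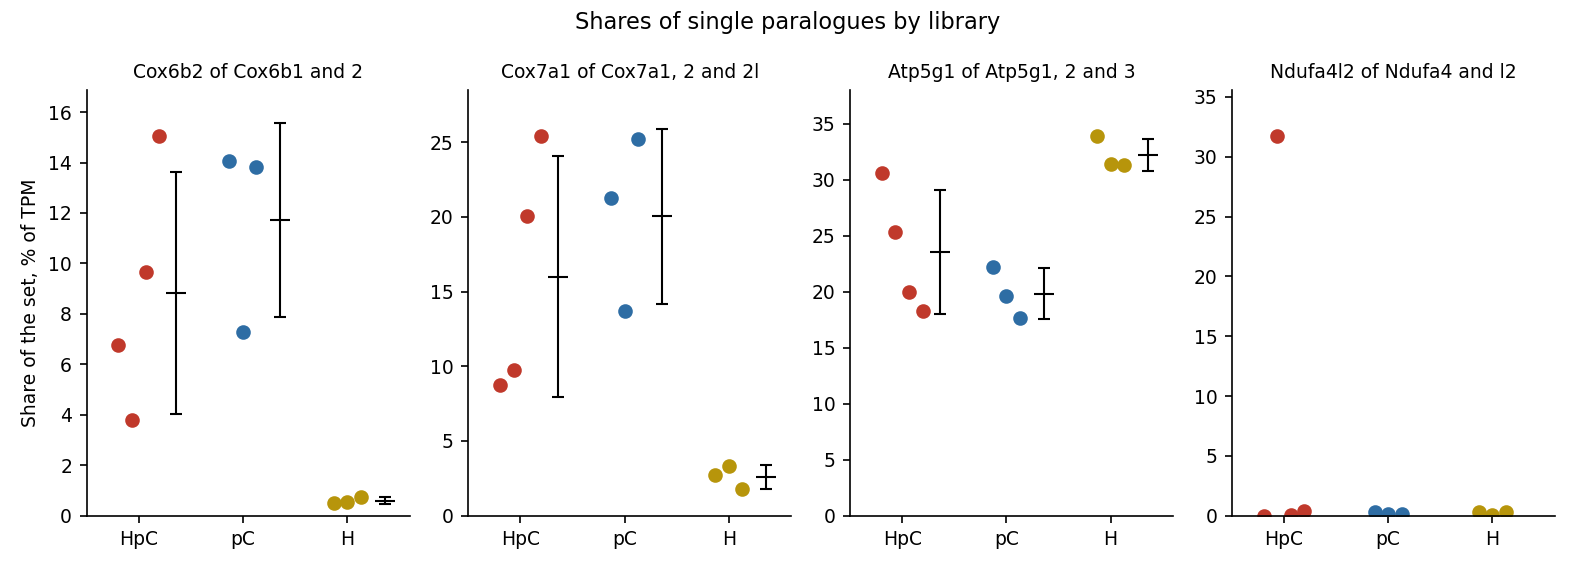
Share of single paralogues in the deposited TPM of their set, per library (points; bars, mean ± SD of 4 HpC, 3 pC and 3 H libraries, not drawn for Ndufa4l2). Cox6b2 and Cox7a1 are low in all H libraries, Atp5g1 is highest in H, and Ndufa4l2 reaches 31.7% in HpC2.

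Promoters are shown to set Cox6b2 and Cox7a1 beside members that hold a known respiratory motif. RefSeq gives a promoter for 75 of the 95 nuclear gene symbols, and the 250 bases before the start were searched on both strands for 4 motifs of factors known to act on respiratory genes. NRF1 (GCGCATGCG) was in 8 of 75 members, 10.7%, and in 1.64% of the 27025 genes in the table. ETS, the GABP site (CCGGAAG), was in 14, 18.7%, against 7.83%; ESRRA (TCAAGGTCA) in 1, against 0.422%; and YY1 (AAGATGGCG) in 1, against 0.710%. Any of the 4 was in 21 members, 28.0%, against 10.1% of all genes. The NRF1 matches were in Atp5g2, Atp5k, Atp5l, Cox6a1, Cycs, Ndufa11, Ndufa8 and Ndufaf4.

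The median member promoter had 15 CpG sites where the median of all genes was 6. None of the 4 motifs was found in Cox6b2, with 8 CpG sites, in Cox7a1, with 4, or in Cox7a2. Cox6b1 and Cox7a2 have 14 CpG sites each, and Cycs and Cox6a1 23 and 26. A match or its absence describes these letters only. In the RefSeq sequences (GRCm38.p6) of Cycs, chr6:50566570-50566819, minus strand, Cox6a1, chr5:115348982-115349208, minus strand, Cox6b2, chr7:4753095-4753344, minus strand and Cox7a1, chr7:30183921-30184143, plus strand, NRF1 matches are in capitals, bases that GENCODE places within the gene are left out, and each reads towards the gene:
Cycs: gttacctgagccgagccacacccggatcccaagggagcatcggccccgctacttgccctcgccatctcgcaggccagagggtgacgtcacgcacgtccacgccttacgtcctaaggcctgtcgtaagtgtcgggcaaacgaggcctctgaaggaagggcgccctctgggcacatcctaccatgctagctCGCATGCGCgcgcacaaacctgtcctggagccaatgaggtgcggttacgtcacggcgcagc
Cox6a1: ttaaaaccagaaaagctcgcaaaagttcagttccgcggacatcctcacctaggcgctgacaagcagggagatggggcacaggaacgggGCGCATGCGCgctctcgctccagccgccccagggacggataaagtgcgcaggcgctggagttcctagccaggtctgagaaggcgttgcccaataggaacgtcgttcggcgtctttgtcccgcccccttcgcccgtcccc
Cox6b2: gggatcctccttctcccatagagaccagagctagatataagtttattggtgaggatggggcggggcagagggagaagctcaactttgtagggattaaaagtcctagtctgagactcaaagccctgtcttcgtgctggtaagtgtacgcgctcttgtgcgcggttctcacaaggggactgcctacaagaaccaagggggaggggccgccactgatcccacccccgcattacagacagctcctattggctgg
Cox7a1: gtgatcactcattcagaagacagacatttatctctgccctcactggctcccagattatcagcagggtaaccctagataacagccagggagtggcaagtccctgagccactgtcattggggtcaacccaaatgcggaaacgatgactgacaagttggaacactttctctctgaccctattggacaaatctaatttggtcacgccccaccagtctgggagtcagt

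The 8 nuclear genes that did not reach the level for testing were mostly tissue-restricted forms. Ndufa4l2, a paralogue of Ndufa4 known to be induced by hypoxia, had 49.0 TPM in HpC2 and 0 to 0.377 TPM in the other 9 libraries. It was 31.7% of the Ndufa4 set in HpC2. HpC2 is also the library with 46480 TPM of squamous genes, against 1.93 to 19.01 TPM in the others. Mesothelial markers summed to 532 TPM in HpC2, 21.2 to 87.4 in the other HpC, 38.0 to 46.9 in pC and 0.0300 to 0.490 in H. Krt14 is in both the squamous and the mesothelial list, so these sums are not independent. The part of either kind of cell in the value of Ndufa4l2 was not tested.

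Cox4i2, the lung form of subunit 4, had 0.614 to 1.44 TPM in pC, 0.112 to 0.842 in HpC and 0 to 0.118 in H. Cox7b2 and Cox8b reached at most 0.554 and 1.78 TPM, and a second Ensembl gene named Atp5o at most 2.18. Cox6a2, Cox8c and Atp5g2 were listed at 0 in every library. The pseudogene Gm10231, identical to Atp5g2 over 441 bases, was also listed at 0.

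Between HpC and pC, 1 of the 101 genes tested, mt-Nd3, passed the threshold. None of the 88 nuclear genes was called by limma, while 4.54% of all genes tested were called, 1.99% higher in HpC and 2.55% higher in pC. At an unadjusted p under 0.05, 3 nuclear genes (Cox5a, Ndufa12 and Uqcrc2) were higher and 0 lower, and 17.8% of all genes passed that mark. By direction alone, 72 pointed higher and 16 lower in HpC, with a median of 0.18 against -0.01 for all genes. The nuclear median was -0.23 with TPM as deposited and -0.12 with the protein-coding total. Without HpC1 and HpC2 it was -0.08.

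Cox5a was the sole nuclear gene whose groups did not overlap, being higher in every HpC than in every pC library, as 6.78% of all genes were; none was higher in every pC library, as 9.72% were. Its difference was 0.93 ± 0.24 (SE; limma adjusted p = 0.0566), a fold of 1.91, and without HpC4 the adjusted p was 0.0116. Over the single libraries left out it ranged from 0.0116 to 0.231. As deposited, 24.6, 56.4, 45.7 and 35.3 TPM in HpC overlapped with 26.9, 22.4 and 31.1 in pC. Within HpC, scaled Cox5a was highest in HpC1 and HpC2, at 36.8 and 49.0, against 31.6 and 21.9 in HpC3 and HpC4. With HpC1 and HpC2 both left out, no nuclear gene was called higher. The part of the acinar and squamous RNA in this difference was not tested.

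By complex, the median differences of HpC against pC were 0.39 for complex III, 0.24 for complex IV, 0.23 for ATP synthase, 0.18 for complex II, 0.17 for complex I and -0.01 for the assembly factors. Summed over complex III, scaled TPM was 790.0, 873, 534 and 401 in HpC and 560.2, 502 and 410.5 in pC, with HpC1 and HpC2, the libraries with acinar and squamous RNA, the highest. Uqcrq showed the same high pair, with a difference of 0.66 ± 0.41 (SE; limma adjusted p = 0.443).

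The mitochondrial genes, which are not independent observations, all pointed higher in HpC. Of the 13, 10 were higher in every HpC than in every pC library, beside 6.78% of all genes. The median was 0.35, and 0.34 without HpC1 and HpC2. mt-Nd3, a complex I subunit (mm10 chrM:9459-9806, plus strand), was the sole gene called, with 482, 496, 461 and 484 scaled TPM in HpC and 342, 335 and 308 in pC. Its difference was 0.55 ± 0.14 (SE; limma adjusted p = 0.0493), 1.46-fold. The call was lost when any 1 library other than HpC2 was left out, with adjusted p from 0.0601 to 0.178 and differences from 0.51 to 0.58. Its share of the mitochondrial TPM, given above, was also higher in every HpC library than in any pC library.

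The next in size were mt-Nd2 at 0.44 (limma adjusted p = 0.13), mt-Atp8 at 0.39 (0.547) and mt-Nd1 at 0.39 (0.225), none of them called. mt-Co1, mt-Co2 and mt-Atp6, at 0.16, 0.20 and 0.28, overlapped between groups. As deposited, no mitochondrial gene was higher in every HpC library, where 2.11% of all genes were, and their median was -0.08, which is 0.28 above that of all genes. The nuclear genes as deposited lay 0.14 above it, and 6 of them, Ndufa6, Ndufa7, Ndufaf8, Ndufb2, Ndufs7 and Sdha, were lower in every HpC than in every pC library, where 16% of all genes were.

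**Figure D5:**
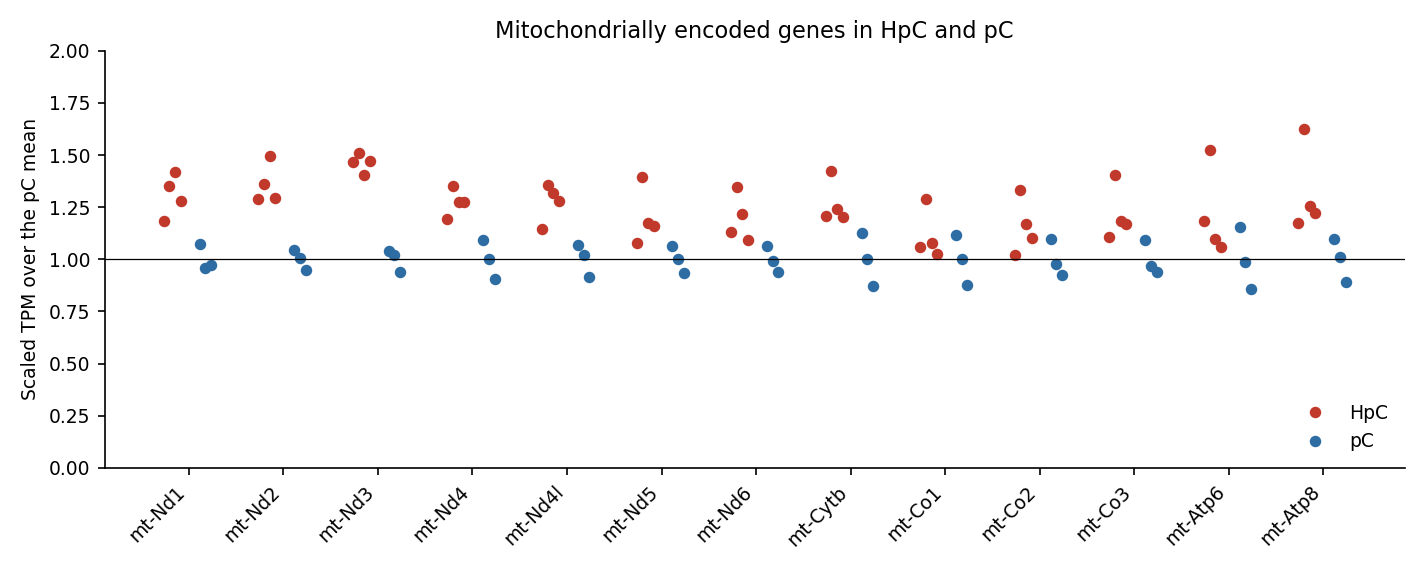
Scaled TPM of each mitochondrial gene in 4 HpC and 3 pC libraries (points), divided by the mean of pC for that gene. HpC lies above pC without overlap for 10 of 13 genes, and mt-Nd3 has the greatest difference, 0.55 on the log2 scale.

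Within the nuclear set, the H libraries lay apart in the shares of complexes II, III and IV, ATP synthase and cytochrome c (Cycs alone). Leaving out Atp5j, complex III took 15.3% to 15.9% of the nuclear TPM in H, 10.3% to 10.6% in pC and 10.7% to 12.7% in HpC. Uqcrq alone was 43.0% to 44.9% of complex III in H, 17.8% to 18.9% in pC and 16.03% to 33.9% in HpC. With Uqcrq also left out, chosen after seeing the data, the complex III share was 9.28% to 9.41% in H, 8.56% to 8.80% in pC and 8.74% to 9.30% in HpC, so that H and HpC overlapped. Complex II took 7.98% to 8.09% in H, 7.25% to 7.28% in pC and 4.52% to 7.01% in HpC. Complex IV took 15.1% to 15.8% in H, 16.1% to 16.7% in pC and 17.4% to 18.5% in HpC. Its share separated HpC from pC as well, as did those of complex II, lower in HpC, and complex III with Uqcrq counted, higher in HpC. ATP synthase took 33.1% to 33.8% in H, 35.2% to 36.5% in pC and 34.2% to 38.0% in HpC. That share counts Atp5b, which held 76.8% of its TPM in a 343-base transcript. Cytochrome c took 0.0385% to 0.0492% in H, 0.0709% to 0.145% in pC and 0.0746% to 0.113% in HpC. The cytochrome c share counts Cycs alone and leaves out its matched pseudogene copies, which held 91.7% of the family's TPM. It was not computed with the copies added. Complex I took 26.6% to 27.0% in H, 28.2% to 29.9% in pC and 26.4% to 29.1% in HpC, and the assembly factors 0.577% to 0.675% in H, 0.781% to 0.978% in pC and 0.666% to 1.05% in HpC, where H overlapped with other libraries.

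Other genes of mitochondrial respiration, listed by function, were mostly lower in the same comparisons. Over all genes tested, 29.2% were lower in HpC against H and 28.6% in pC against H. Of 37 assembly factors outside the symbol rule, 34 were lower in HpC against H and 33 in pC against H, and none was higher; Coa6, a factor for the copper site of complex IV, differed by -2.24 and -2.33. Of 17 tricarboxylic acid cycle genes, 13 and 15 were lower and none was higher; Suclg1, of succinyl-CoA ligase, differed by -2.49 and -2.61 and Fh1, fumarase, by -2.38 and -2.81. Of 20 genes for mitochondrial genome expression, 16 were lower in each and none was higher; Lrpprc, which stabilises mitochondrial mRNA, differed by -2.41 and -2.39 and Top1mt, the mitochondrial topoisomerase, by -2.27 and -2.15. Of 15 genes of mitochondrial membranes and protein import or folding, 12 and 13 were lower and none was higher; Hspd1, the chaperonin, differed by -2.11 and -2.69.

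The 12 regulators of mitochondrial biogenesis split, with 4 higher and 5 lower in HpC against H and 3 higher and 5 lower in pC against H. Of all genes tested, 30.7% were higher and 29.2% lower in HpC against H, and 31.1% and 28.6% in pC against H. Ppara, the fatty acid receptor of hepatocytes, had 2.31 to 8.98 scaled TPM in HpC, 1.18 to 3.47 in pC and 85.0 to 174 in H. It differed by -4.44 and -5.33, and Ppargc1b, a coactivator, by -2.13 and -2.65. Myc had 96.3 to 195 scaled TPM in HpC, 67.8 to 118.6 in pC and 3.30 to 5.54 in H, differing by 4.79 and 4.07, and Gabpb1, a subunit of the factor that binds the ETS site above, differed by 1.26 and 1.10.

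Of 12 tested genes for electron entry and coupling, 8 were lower and 3 higher in both comparisons. Over all genes tested, 29.2% were lower and 30.7% higher in HpC against H, and 28.6% and 31.1% in pC against H. Sqor, which feeds electrons from sulphide to quinone, differed by -3.13 and -3.45, and Etfb, of the electron transfer flavoprotein, by -3.10 and -3.21. Slc25a4, the heart and muscle ADP/ATP carrier, had 28.4 to 37.3 scaled TPM in HpC, 20.8 to 24.9 in pC and 0.152 to 0.412 in H. H lay far below the others, with differences of 4.68 ± 0.15 and 4.22 ± 0.16 (SE; limma adjusted p = 2.69e-08 and 5.56e-08). Ucp2, an inner membrane carrier, differed by 2.79 and 2.74. In HpC against pC, none of the genes of these lists was called, against 4.54% of all genes tested.

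Beside the comparisons with H, 10 dissociation stress genes took 0.247 to 1.05% of all TPM in HpC, 1.08 to 1.24% in pC and 0.0147 to 0.0355% in H. The populations were also released from the liver in different ways, so that isolation and cell type cannot be told apart. The part of the hepatocyte markers seen in HpC and pC in the levels of the respiratory chain genes was not tested.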

How the data were processed

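RNA-seq of 10 FACS-sorted low-input libraries (single-end reads) was deposited by the authors as TPM per Ensembl transcript; the submitters' processing notes name kallisto, DESeq and mm10, with no versions or roles. Depth cannot be recovered from TPM, so no count test was run. Transcripts were matched to genes through GENCODE M21 (81927 of 85276 matched; unmatched ones held 4.22% to 9.06% of a library's TPM) and summed. Genes at 1 TPM or more in at least 3 libraries were kept (14765).

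Libraries were scaled by a trimmed mean of log ratios (30% of ratios and 5% of levels left out at each end; factors 0.499 to 1.61). Group means were compared by limma 3.58.1 (R 4.3.3, trended prior) on log2(scaled TPM + 1), in 1 fit of all libraries, with Benjamini-Hochberg adjustment at 5% over all genes kept; fold changes of low genes are understated. The fit was tested on simulated data in which a small set of genes changed between HpC and pC. These data held no broad shift against H and no acinar or squamous RNA, so they cannot decide the choice of scaling. Sums, ratios and shares are descriptions and have no test. Pseudogene copies were found with blastn 2.17.0 (at least 90% identity over at least 100 bases and 80% of the pseudogene): 68 pseudogenes of 37 members. Python 3.11.15, pandas 2.3.3 and matplotlib 3.10.9 were used.

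The members, lists and tests were chosen with earlier results of these data known. Named genes are all mitochondrial members, per comparison up to 8 called nuclear members with the largest rise and fall whose groups do not overlap, the isoform sets, the most abundant member of each complex, and from each list up to 2 genes in each direction. Cox5a in HpC against pC, and the other members given by a difference alone, were added after their values were seen. Alternatives were other pseudocounts, filters and scalings, pseudogenes added, short transcripts left out, array weights, a replicate block, and leaving out libraries; those on short transcripts and on pseudogenes matched by sequence were chosen after seeing the data.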

Additional observations from a re-analysis of the deposited data

Results flagged for a closer look

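Dixon's criterion for a lone distant library was applied to HpC, the sole group of 4, for 49 quantities: the named genes, the sums and their ratios. It marked 2, where chance marks about 1 in 20. Ndufa4l2 was at 42.5 scaled TPM in HpC2 and at 0 to 0.183 in the other HpC libraries. Cox8b was at 0.214 scaled TPM in HpC4 and listed at 0 in the others, a level too low to read.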

How the results depend on the processing

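The lower level of both gene sets in HpC and pC than in H kept its direction under all alternatives, but its size and the number of nuclear calls depended on scaling. With TPM as deposited, 40 nuclear genes were called lower in HpC against H and 20 in pC against H, with nuclear medians of -0.686 and -0.489 and mitochondrial medians of -1.145 and -1.047. With the total of protein-coding nuclear genes, 55 and 44 were called, with medians of -0.906, -0.816, -1.372 and -1.381. Over all 14765 genes tested, 1519 and 1255 were called lower as deposited, and 1755 and 1504 with the protein-coding total. In HpC against pC these scalings put the mitochondrial median at -0.080 and 0.027. The cause was not tested.

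In HpC against pC, the 1 mitochondrial call (mt-Nd3) became 0 with a pseudocount of 0.1 or 5, no filter, TPM as deposited, the protein-coding total, HpC1 and HpC2 left out together, short transcripts left out, matched pseudogenes added, or only the libraries of the groups compared, and 3 with array weights. Leaving out single libraries gave 0 to 1 mitochondrial calls and 0 to 3 nuclear genes called higher. Nuclear calls were 1 higher with median-of-ratios scaling, and 1 higher and 1 lower with array weights. With array weights, 831 of all 14765 genes tested were called higher and 966 lower, against 294 and 377 without them. Same-numbered libraries did not deviate together (correlations -0.046 to 0.084), so the numbers do not pair them; with the replicate block, 1 nuclear gene was called higher and 0 mitochondrial genes.

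With TPM as deposited, 5 members called under it or under trimmed-mean scaling pointed the other way in HpC against H and 10 in pC against H, and 42 and 56 others lost their call. With the protein-coding total, 4 and 6 pointed the other way and 26 and 34 lost their call. Of the genes named singly and called under either scaling, those pointing the other way with TPM as deposited were Cox7a2l (0.307 in HpC against H and 0.651 in pC against H), Cycs (0.291 and 0.589), Ndufaf2 (0.058 and 0.546), Ndufa12 (0.480 and 0.304), Ndufaf7 (0.514 and 1.081) and Ndufa6 (0.152 in pC against H). With the protein-coding total these were Cox7a2l (0.089 and 0.327), Cycs (0.103 and 0.304), Ndufaf2 (0.234 in pC against H), Ndufa12 (0.257 in HpC against H) and Ndufaf7 (0.345 and 0.817). In pC against H, Ndufaf7 passed the threshold under these scalings only. Of the other results of genes named singly, 88 lost a call over all alternatives, 27 with TPM as deposited and 19 with the protein-coding total, and 9 gained one, of which 5 with array weights. Without a filter, mt-Atp8 lost its calls against H, with an SE of 7.89 in HpC against H.

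Sums rest on short transcripts. In scaled TPM, the nuclear means for HpC, pC and H were 10170, 8977 and 38340; without mt-Atp8 and Atp5j they were 5537, 4704 and 20240, and without transcripts under 300 bases 5372, 4551 and 19400. The mitochondrial means went from 96170, 73990 and 467000 to 17770, 14570 and 88600, and to 15950, 13140 and 78750. Their ratio went from 9.82, 8.31 and 12.2 to 3.38, 3.11 and 4.38, and to 3.13, 2.90 and 4.06. Atp5b, with 76.8% of its TPM in a 343-base transcript, counts in all of these nuclear sums. Depth is unknown, so low values have no detection limit.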
